A study of Mus musculus with 8 samples.

Results

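The 10 genes described here are 9 transcription regulators of the red blood cell lineage, Gata1, Klf1, Tal1, Nfe2, Zfpm1, Lmo2, Gfi1b, Sox6 and Bcl11a, and the erythropoietin receptor gene Epor. They were taken by gene symbol, and every row under these symbols was used: 19 RefSeq transcripts among the 23517 of the table, or 10 of its 17738 gene symbols. RNA of whole spleens was sequenced from untreated male C57BL/6 mice aged 8 to 12 weeks, 4 of them wild-type and 4 TTPΔARE. Zfp36 encodes tristetraprolin (TTP), which speeds the decay of messenger RNAs by binding their AU-rich elements. In TTPΔARE mice the element of this kind is missing from Zfp36's own message. The labels do not give the number of copies of the allele, restrict it to a cell type or name a litter, batch or pairing. Replicate numbers are therefore only names, and p-values for group differences rest on the spread between these spleens.

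The mouse spleen makes red blood cells beside its immune functions, and it does more of this under stress. Erythropoietin acts through its receptor and the kinase JAK2 on erythroid progenitors. GATA1, with its cofactor FOG1 (gene Zfpm1) and a complex of TAL1, LMO2 and LDB1, then switches on globin, heme and membrane genes together with KLF1 and NF-E2. GFI1B silences genes in the same cells, and SOX6 and BCL11A repress embryonic or fetal globin genes. Several of these factors also act elsewhere: Gata1, Tal1, Nfe2, Zfpm1 and Gfi1b in megakaryocytes, and Bcl11a in B cells and plasmacytoid dendritic cells.

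Levels are FPKM, fragments scaled by the length of the transcript and the depth of the library, and differences are on the log2(FPKM + 0.5) scale, TTPΔARE minus wild-type. The recovered depth was 28.3 to 32.2 M fragments per spleen. Zfp36 itself was at 40.3 ± 3.91 FPKM in wild-type and rose in TTPΔARE, by log2 0.39 (SD, n = 4, limma adjusted p = 0.0323). That call was lost without wild-type replicates 1 or 4 or TTPΔARE replicates 1, 3 or 4 (limma adjusted p = 0.0665 to 0.108). Zfp36 was higher by log2 0.44 without wild-type replicate 3 (limma adjusted p = 0.0234), and with the mean of the erythroid structural and heme genes as a covariate by log2 0.24 (limma adjusted p = 0.691). Wild-type replicate 3 stood apart from the other wild-type spleens: it was the highest wild-type spleen for 9 of the 10 genes, and for 8 it exceeded TTPΔARE replicate 1. Those 8 include Lmo2 and Bcl11a, which were not higher in TTPΔARE, and leave out Zfpm1 and Sox6. TTPΔARE replicate 2 was the lowest TTPΔARE spleen for 9 of the 10. Changes of the most abundant transcript of each tested member, and of Myb, Fli1 and Kit, are therefore given below with and without wild-type replicate 3. This spleen was singled out from these same values.

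Some markers of other cells moved beside the erythroid genes. Of all tested transcripts, 4.0% were called at a limma adjusted p under 0.05, and 4.37% without wild-type replicate 3. At an unadjusted p under 0.05 the share was 21.1%. That count was 33 of 36 for erythroid, 13 of 18 for megakaryocyte and platelet and 8 of 14 for B cell genes. With a robust variance it was 17, 11 and 8. Of 36 erythroid structural and heme genes tested, 10 rose, 0 fell and the median was log2 1.10, and their summed level was 6242 to 11458 FPKM in wild-type and 14866 to 22758 FPKM in TTPΔARE spleens. This sum is 93.9 to 98.0% globin: the 5 globin genes summed to 9558, 11227, 6435 and 5974 FPKM in wild-type replicates 1 to 4 and to 15511, 14478, 22082 and 21840 FPKM in TTPΔARE replicates 1 to 4, without overlap. The other 32 genes found summed to 220.02, 231.04, 416.6 and 268.3 FPKM and to 466.2, 387.4, 676.01 and 663.4 FPKM, and here wild-type replicate 3 lay above TTPΔARE replicate 2. Wild-type replicate 3 was the highest wild-type spleen for 28 of the 36 tested genes but not for Alas2, Bpgm, Mkrn1 or any of the 5 globin genes, a split looked at after the values were seen. In the mean over the 36 genes of log2 values centred on each gene, the groups overlapped, at -0.99 to 0.21 in wild-type, with replicate 3 highest, and 0.03 to 0.86 in TTPΔARE spleens (exact two-sided permutation p = 0.0571). Leaving out wild-type replicate 3 gave 33 genes that rose, leaving out wild-type replicate 4 or TTPΔARE replicate 3 gave 3, and leaving out TTPΔARE replicate 4 gave 5. Of 18 megakaryocyte and platelet genes, 2 rose, Itgb3 and Treml1, with summed levels of 68.8 to 127.6 and 92.6 to 149.7 FPKM; 11 rose without wild-type replicate 3, 6 without TTPΔARE replicate 2 and 1 without any other single spleen. Of 14 B cell genes 2 fell, Fcer2a and Cd22, with sums of 1197 to 1299 and 1082 to 1162 FPKM, and 4 fell when wild-type replicate 3 was left out and 3 when it was replicate 1. Of 11 endothelial genes 3 rose, Esam, Gpihbp1 and Kdr, with 6 at an unadjusted p under 0.05, a median of log2 0.22 and sums of 99.5 to 114.7 and 114.3 to 124.5 FPKM. That count was 1 without TTPΔARE replicate 3 or 4, 3 without wild-type replicate 3, 2 without any other single spleen, and 0 with the erythroid mean as a covariate (2 at an unadjusted p under 0.05, limma). Mast cell and basophil genes were low in both groups: 7 of the 11 found were under 0.5 FPKM on average, and the sums over the list were 5.17 to 7.45 and 7.30 to 11.4 FPKM. None of the markers found was at 0 in all 8 spleens. In bulk spleen RNA, a different number of cells of a type and a different amount of RNA per cell cannot be told apart, and the part of these cells in the results below was not tested.

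In their most abundant transcripts, Gata1, Klf1, Tal1, Nfe2, Gfi1b and Epor had mean levels 1.70 to 2.40 times as high in TTPΔARE as in wild-type spleens. This ratio was 2.72 for the second Gfi1b transcript and 1.31 for Zfpm1. With all 8 spleens, however, no member passed the test. Lmo2 was nearly level, and Bcl11a stood slightly lower in TTPΔARE. Of the 19 transcripts, 16 of 9 genes had a mean of at least 0.5 FPKM and were tested. At a limma adjusted p under 0.05, 0 of 16 were called, where 4.0% of all 16608 tested transcripts were (2.01% higher and 1.99% lower). At an unadjusted p under 0.05, 10 of the 16 were counted, 8 higher and 2 lower in TTPΔARE, against 21.1% of all transcripts (11.6% higher and 9.47% lower). That count of 10 was 4 with a robust variance, 6 without TTPΔARE replicate 3, and 7 without wild-type replicate 1 or 2. With the erythroid mean as a covariate it was 6. Every member estimate was negative in that fit (median log2 -0.29), so those 6 were all in the lower direction. The groups did not overlap for 0 member transcripts in the higher direction and for 2 in the lower, both of Bcl11a, against 6.53% and 5.99% of all transcripts. The median change was log2 0.15 over the 16, with 8 positive and 8 negative, beside 0.003 over all tested transcripts. The 8 negative ones were the transcripts of Lmo2 and Bcl11a. With 1 transcript per symbol the median was log2 0.82 over 9 genes, beside 0.005 over all 12410. In that fit 8 of the 9 had a limma unadjusted p under 0.05, against 2629 of the 12410, and 0 passed at an adjusted p under 0.05.

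**Figure D1:**
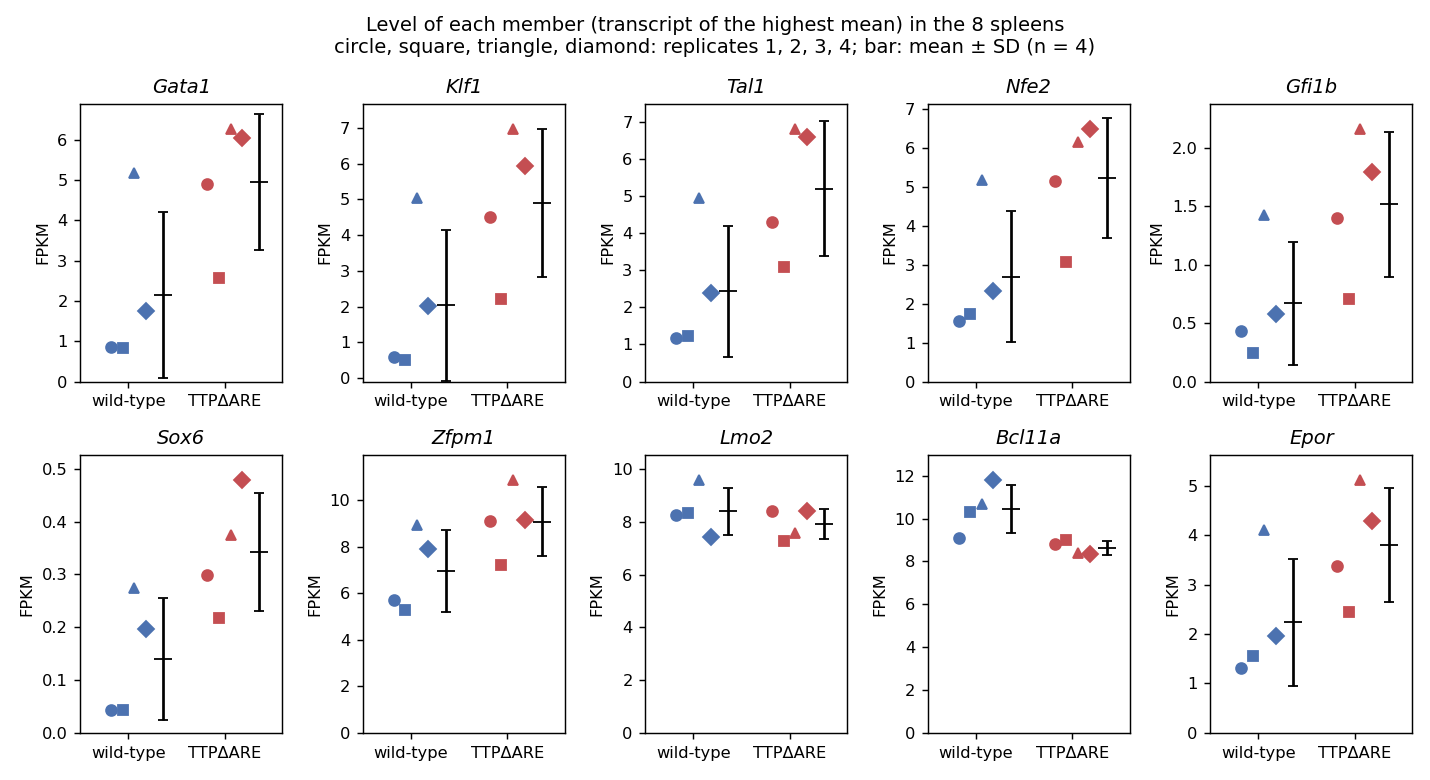
Level (FPKM, vertical axes from 0 or below to a maximum of their own) of each of the 10 genes, as the transcript of the highest mean, in the 4 wild-type and 4 TTPΔARE spleens, with a bar for the mean ± SD (n = 4). For Gata1, Klf1, Tal1, Nfe2, Gfi1b and Epor, wild-type replicate 3 (triangle) lies above TTPΔARE replicate 2 (square), and for Bcl11a all TTPΔARE spleens lie below the wild-type ones.

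Gata1 encodes the zinc finger factor that directs erythroid and megakaryocyte gene expression, and lies on chromosome X at 7959260 to 7976663 (GRCm38.p6). Its transcript NM_008089 was at 0.850, 0.838, 5.16 and 1.75 FPKM in wild-type replicates 1 to 4 and at 4.897, 2.58, 6.26 and 6.04 FPKM in TTPΔARE replicates 1 to 4. Wild-type replicates 1 and 2 were the lowest, TTPΔARE replicates 3 and 4 the highest, and the groups overlapped through wild-type replicate 3. The means were 2.15 ± 2.05 and 4.95 ± 1.69 FPKM (SD, n = 4 each), a ratio of 2.30, while the highest and lowest wild-type spleens differed 6.16-fold. The change was log2 1.25 (SE 0.412, 95% interval 0.34 to 2.15, limma unadjusted p = 0.0114, adjusted p = 0.117), and an exact two-sided permutation test gave p = 0.0857. About 45.8 to 377 fragments per spleen stood behind these levels. Gata1 changed by log2 1.71 without wild-type replicate 3 (limma adjusted p = 0.0136).

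Zfpm1 encodes FOG1, which binds GATA1 and does not itself contact DNA in this complex (chromosome 8, 122281856 to 122337862). It was among the most abundant members per length, at 5.69, 5.28, 8.92 and 7.88 FPKM in wild-type and 9.11, 7.21, 10.8 and 9.13 FPKM in TTPΔARE spleens. The groups overlapped, and the spread was narrower than that of Gata1. The means were 6.94 ± 1.74 and 9.07 ± 1.48 FPKM (SD, n = 4 each), a ratio of 1.31 and a change of log2 0.38 (SE 0.158, limma adjusted p = 0.199). With wild-type replicate 3 left out it was log2 0.50 (limma adjusted p = 0.0846), still short of the threshold.

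Tal1 encodes the basic helix-loop-helix protein that binds E-boxes beside GATA1 (chromosome 4, 115056426 to 115071755). It was at 1.18, 1.23, 4.96 and 2.37 FPKM in wild-type and at 4.30, 3.08, 6.81 and 6.61 FPKM in TTPΔARE spleens. The order of the spleens resembled that of Gata1, with wild-type replicate 3 above TTPΔARE replicates 1 and 2. The change was log2 1.07 (SE 0.349, 95% interval 0.31 to 1.84, limma adjusted p = 0.114), from 2.44 ± 1.77 to 5.20 ± 1.82 FPKM (SD, n = 4 each). It was log2 1.43 without wild-type replicate 3 (limma adjusted p = 0.0184).

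Lmo2 encodes the bridging protein that joins TAL1 and LDB1 (chromosome 2, 103957903 to 103981878). In contrast to Tal1, its most abundant transcript NM_001142335 was at 8.25, 8.33, 9.58 and 7.44 FPKM in wild-type and 8.40, 7.29, 7.57 and 8.41 FPKM in TTPΔARE spleens. The groups overlapped almost entirely. The change was log2 -0.08 (SE 0.0797, 95% interval -0.25 to 0.10, limma adjusted p = 0.634), and the other 3 transcripts of the gene were at log2 -0.09, -0.11 and -0.09 (limma adjusted p = 0.617, 0.555 and 0.636). Without wild-type replicate 3, NM_001142335 was at log2 -0.02 (limma adjusted p = 0.932). The interval with all spleens is narrow beside the changes of Gata1 and Tal1: its upper bound lies under the lower bounds of both. The ratio of Lmo2 to Tal1 levels ran from 7.02 in wild-type replicate 1 to 1.11 in TTPΔARE replicate 3, with wild-type replicate 3 at 1.93 and an exact permutation p of 0.0857 between the groups.

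Klf1 encodes the erythroid Krüppel-like factor that binds CACCC-type sequences in globin and other erythroid promoters (chromosome 8, 84901982 to 84905291). It was at 0.599, 0.509, 5.03 and 2.03 FPKM in wild-type and 4.50, 2.20, 6.98 and 5.93 FPKM in TTPΔARE spleens. It had the widest wild-type range of the tested members relative to its level, 9.88-fold from the lowest to the highest spleen, and 3.17-fold among TTPΔARE spleens. The means were 2.04 ± 2.11 and 4.902 ± 2.07 FPKM (SD, n = 4 each), and the change of log2 1.35 was the largest point estimate among the members (SE 0.489, 95% interval 0.27 to 2.42, limma adjusted p = 0.145). Without wild-type replicate 3 it was log2 1.84 (limma adjusted p = 0.0254).

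Nfe2 encodes the larger subunit of NF-E2, which pairs with a small MAF protein (chromosome 15, 103248212 to 103258403). Its levels were 1.55, 1.72, 5.18 and 2.32 FPKM in wild-type and 5.14, 3.07, 6.16 and 6.48 FPKM in TTPΔARE spleens. Wild-type replicate 3 again lay among the TTPΔARE spleens, just above replicate 1. The change was log2 0.92 (SE 0.300, 95% interval 0.26 to 1.58, limma adjusted p = 0.114), and log2 1.24 without wild-type replicate 3 (limma adjusted p = 0.0152).

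Gfi1b encodes a repressor that recruits the demethylase LSD1 (chromosome 2, 28609450 to 28621982). Transcript NM_008114 was at 0.430, 0.240, 1.43 and 0.577 FPKM in wild-type and 1.40, 0.710, 2.16 and 1.79 FPKM in TTPΔARE spleens. Its low values rest on few fragments, 12.7 in the lowest spleen. The change was log2 0.82 (SE 0.290, limma adjusted p = 0.136), and log2 1.10 without wild-type replicate 3 (limma adjusted p = 0.0309). The second transcript, NM_001160406, shares exons with the first, so how reads were divided between them is uncertain. It had log2 0.87 (SE 0.277, limma adjusted p = 0.108), log2 1.07 without wild-type replicate 3 (limma adjusted p = 0.0501) and log2 1.12 without TTPΔARE replicate 2 (limma adjusted p = 0.0302).

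Sox6, whose product restrains embryonic globin genes and aids red cell maturation, was the least abundant member (chromosome 7, 115470872 to 116040776). All 3 of its transcripts averaged under 0.5 FPKM and were left out of the test. The most abundant, NM_001025559, was at 0.0437, 0.0434, 0.275 and 0.196 FPKM in wild-type and 0.298, 0.218, 0.375 and 0.478 FPKM in TTPΔARE spleens. The groups overlapped by wild-type replicate 3 and TTPΔARE replicate 2 alone, and an exact two-sided permutation test gave p = 0.0571. About 10 to 124.5 fragments lay behind these values over a transcript of 8079 bases. The wild-type mean was 0.0944 FPKM without wild-type replicate 3, against 0.140 with it and 0.342 in TTPΔARE. In a fit with no filter on low values the 3 transcripts had limma adjusted p-values of 0.143, 0.150 and 0.272. The exact two-sided permutation test gave p = 0.0857 and 0.143 for the other transcripts. In the last of them wild-type replicate 4 (0.201 FPKM) also lay above TTPΔARE replicate 2 (0.164 FPKM).

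Bcl11a, a zinc finger repressor needed for B cell development and for silencing fetal globin, took the other direction (chromosome 11, 24076564 to 24173558). Transcript NM_001242934, the most abundant of 4, was at 9.07, 10.3, 10.7 and 11.8 FPKM in wild-type and 8.83, 8.98, 8.39 and 8.35 FPKM in TTPΔARE spleens. All TTPΔARE spleens lay below all wild-type ones, by a narrow margin at wild-type replicate 1. The change was log2 -0.26 (SE 0.0747, 95% interval -0.42 to -0.09, limma adjusted p = 0.0816), and the exact two-sided permutation p was 0.0286, the smallest that 70 assignments can give. Transcript NM_016707 had log2 -0.32 (SE 0.0834, limma adjusted p = 0.0607) with overlap, and the other 2 had log2 -0.21 and -0.14 (limma adjusted p = 0.277 and 0.283). Without wild-type replicate 3 the changes were log2 -0.25 for NM_001242934 (limma adjusted p = 0.136) and log2 -0.29 for NM_016707 (limma adjusted p = 0.110). Without wild-type replicate 1, NM_016707 and NM_001242934 passed, at log2 -0.38 (limma adjusted p = 0.0271) and -0.32 (limma adjusted p = 0.0297). NM_016707 also passed without TTPΔARE replicate 2, at log2 -0.37 (limma adjusted p = 0.0441).

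Epor encodes the erythropoietin receptor, a homodimeric cytokine receptor of erythroid progenitors (chromosome 9, 21958897 to 21963576). It was at 1.31, 1.55, 4.11 and 1.97 FPKM in wild-type and 3.37, 2.45, 5.11 and 4.29 FPKM in TTPΔARE spleens. Its range was narrower than that of Gata1, but wild-type replicate 3 again lay above TTPΔARE replicates 1 and 2. The means were 2.24 ± 1.28 and 3.80 ± 1.15 FPKM (SD, n = 4 each), a ratio of 1.70 and a change of log2 0.71 (SE 0.271, 95% interval 0.12 to 1.31, limma adjusted p = 0.160). Without wild-type replicate 3 it was log2 0.999 (limma adjusted p = 0.0229).

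**Figure D2:**
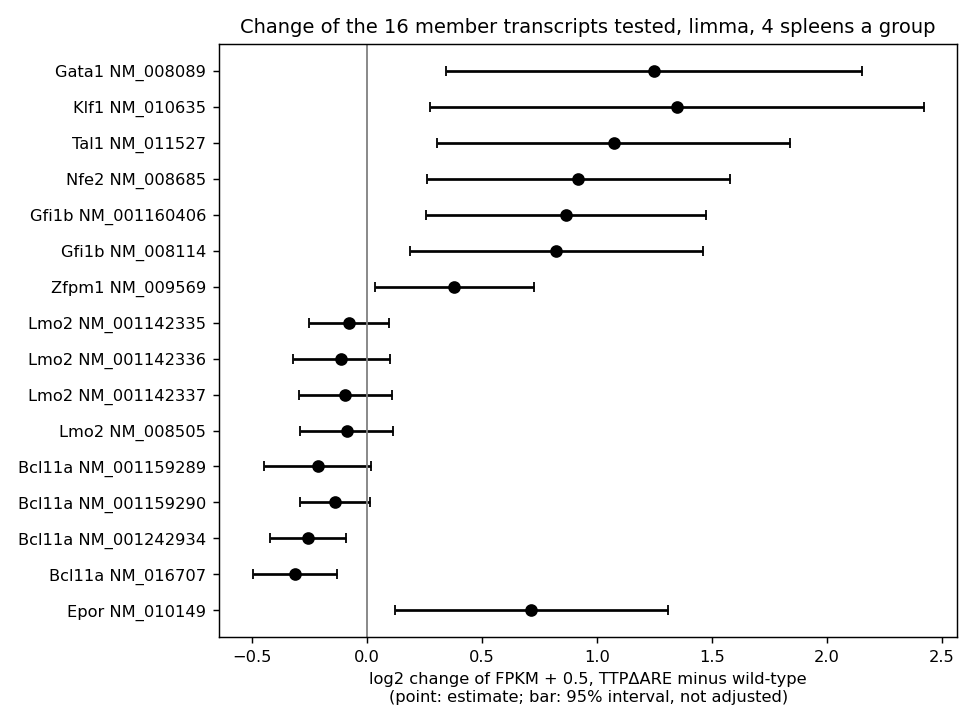
Change of each of the 16 tested transcripts on the log2(FPKM + 0.5) scale, TTPΔARE minus wild-type (horizontal axis; point, limma estimate; bar, 95% interval not adjusted for the number of transcripts; 4 spleens a group). The 8 transcripts of Gata1, Klf1, Tal1, Nfe2, Gfi1b, Zfpm1 and Epor lie above 0, from log2 0.38 to 1.35, and those of Lmo2 and Bcl11a lie below 0 with shorter bars.

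Leaving out wild-type replicate 3 brought 6 of the 16 transcripts past the threshold, those of Gata1, Klf1, Tal1, Nfe2 and Epor and NM_008114 of Gfi1b, all higher in TTPΔARE. In that fit 2.69% of all transcripts were called higher and 4.37% in either direction. No reason to drop this spleen is given in the labels, and it was singled out after its values were seen. None of these 6 transcripts passed with any other single spleen left out. Without TTPΔARE replicate 3 their limma adjusted p-values were 0.272 to 0.373. With the mean of the erythroid structural and heme genes as a covariate, the 8 estimates that had been positive lay between log2 -0.61 for Klf1 and -0.14 for Gfi1b NM_001160406. None of them passed (limma adjusted p = 0.373 to 0.923), and neither did any other transcript in that fit. That covariate differs between the genotypes, so the 2 cannot be told apart in that fit.

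**Figure D3:**
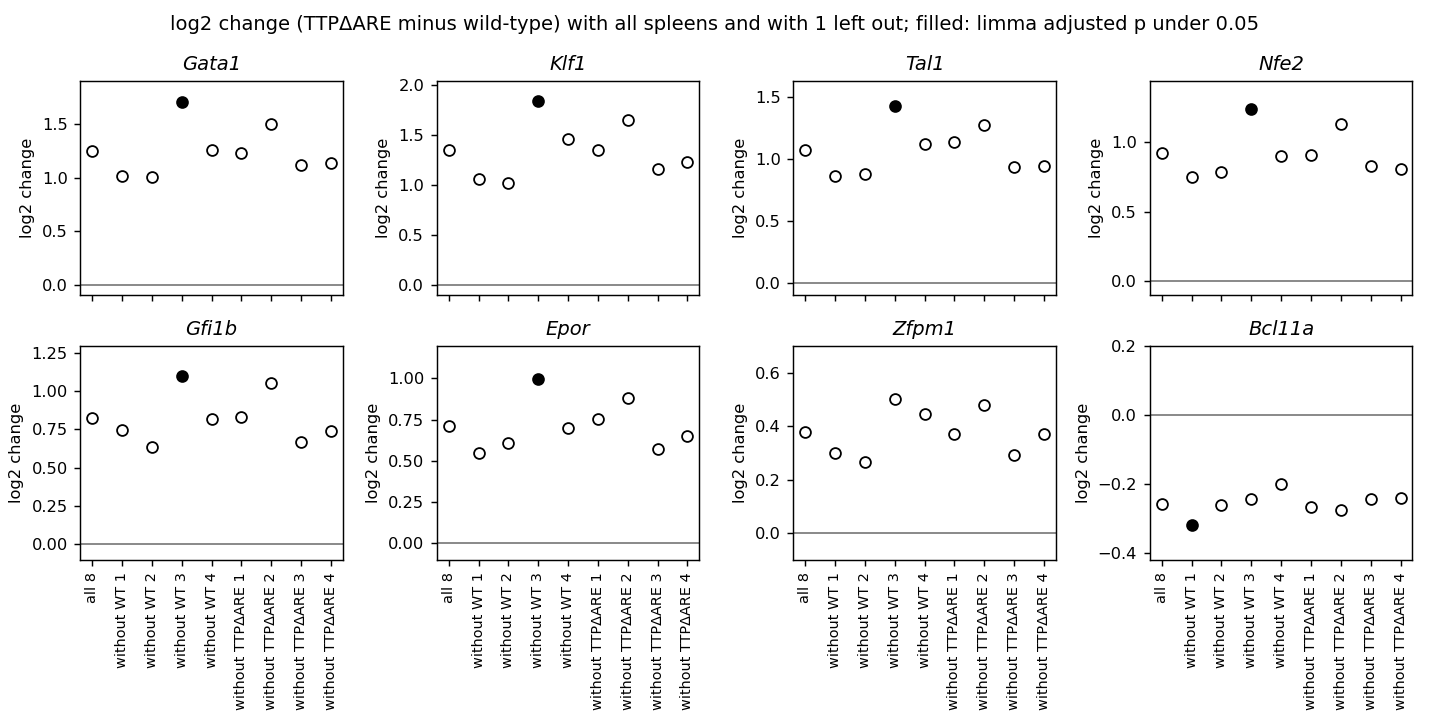
Change (log2(FPKM + 0.5) scale, TTPΔARE minus wild-type) of 8 genes with all spleens and with each spleen left out in turn; filled points had a limma adjusted p under 0.05 and vertical axes differ between panels. Gata1, Klf1, Tal1, Nfe2, Gfi1b and Epor are filled at 1 place, the fit without wild-type replicate 3, and Bcl11a NM_001242934 at 1 place, the fit without wild-type replicate 1.

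Per length, the order of mean levels in wild-type spleens was Bcl11a (10.5 FPKM), Lmo2 (8.40), Zfpm1 (6.94), Nfe2 (2.69), Tal1 (2.44), Epor (2.24), Gata1 (2.15), Klf1 (2.04), Gfi1b (0.668) and Sox6 (0.140). From Nfe2 to Klf1, neighbours differed by less than their SDs of 1.28 to 2.11 FPKM. In TTPΔARE spleens the order was Zfpm1 (9.07 FPKM), Bcl11a (8.64), Lmo2 (7.92), Nfe2 (5.21), Tal1 (5.20), Gata1 (4.95), Klf1 (4.902), Epor (3.80), Gfi1b (1.52) and Sox6 (0.342). Zfpm1, Bcl11a and Lmo2 were thus the 3 most abundant in both groups, and Gfi1b and Sox6 the 2 least.

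The spleens lined up in much the same way for 8 of the genes. Across the 8 spleens, Pearson's r of Gata1 with Klf1, Tal1, Nfe2, Zfpm1, Gfi1b, Sox6 and Epor was 0.947 to 0.995 on the log2(FPKM + 0.5) scale, with exact permutation p-values of 2.48e-05 to 0.000719 and 0.000136 to 0.000989 after adjustment over 11 relations. Spearman's rho was 0.952 to 1.0, with exact permutation p-values adjusted to 0.000273 to 0.00157. Without wild-type replicates 1 and 2, the spleens farthest from the median of Gata1, r was 0.826 for Zfpm1, 0.845 for Sox6 and 0.968 to 0.996 for the other 5. After each group's mean was taken off, r was 0.915 to 0.990. The values of a spleen share a library and its depth. The permutations shuffled all 8 spleens regardless of genotype, so their p-values also take in any difference between the groups.

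Gata1 was also correlated with the mean of the 36 tested erythroid structural and heme genes, in which each gene weighs the same. Pearson's r was 0.974 (exact permutation p = 0.000124, adjusted p = 0.000273), 0.919 without wild-type replicates 1 and 2, and 0.967 after the group means were taken off, and Spearman's rho was 0.976 (exact permutation p = 0.000397, adjusted p = 0.000873). The 5 globin genes, Alas2, Bpgm and Mkrn1 of that list did not share Gata1's order among wild-type spleens. The other 28 were highest in wild-type replicate 3 among these spleens, as Gata1 was. Among the 28 was Car2, a carbonic anhydrase gene, at 10.6, 9.57, 55.6 and 23.1 FPKM in wild-type replicates 1 to 4. Alas2, which encodes the erythroid enzyme that starts heme synthesis, was at 26.5, 33.0, 20.2 and 19.2 FPKM in wild-type replicates 1 to 4, where Gata1 was highest in replicate 3 and lowest in replicates 1 and 2. Hba-a2, an alpha globin gene, was likewise at 2155, 2751, 1535 and 1443 FPKM. Lmo2 did not follow Gata1 either: its r with Gata1 was 0.194 (exact permutation p = 0.649, adjusted p = 0.649) and its rho 0.286 (exact permutation p = 0.501). Bcl11a had r = -0.432 with Gata1 (exact permutation p = 0.278, adjusted p = 0.306) and rho = -0.619 (exact permutation p = 0.115, adjusted p = 0.126). Bcl11a lay nearer to the mean of the B cell genes, with r = 0.897 (exact permutation p = 0.00243, adjusted p = 0.00297) and rho = 0.905 (exact permutation p = 0.00456, adjusted p = 0.00558). That r was 0.918 without wild-type replicates 3 and 4 and 0.688 after the group means were taken off, for which no p-value was computed. Bcl11a and the B cell mean each separated the groups without overlap. Because the permutations shuffled all 8 spleens regardless of genotype, their p-values also take in that group difference.

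**Figure D4:**
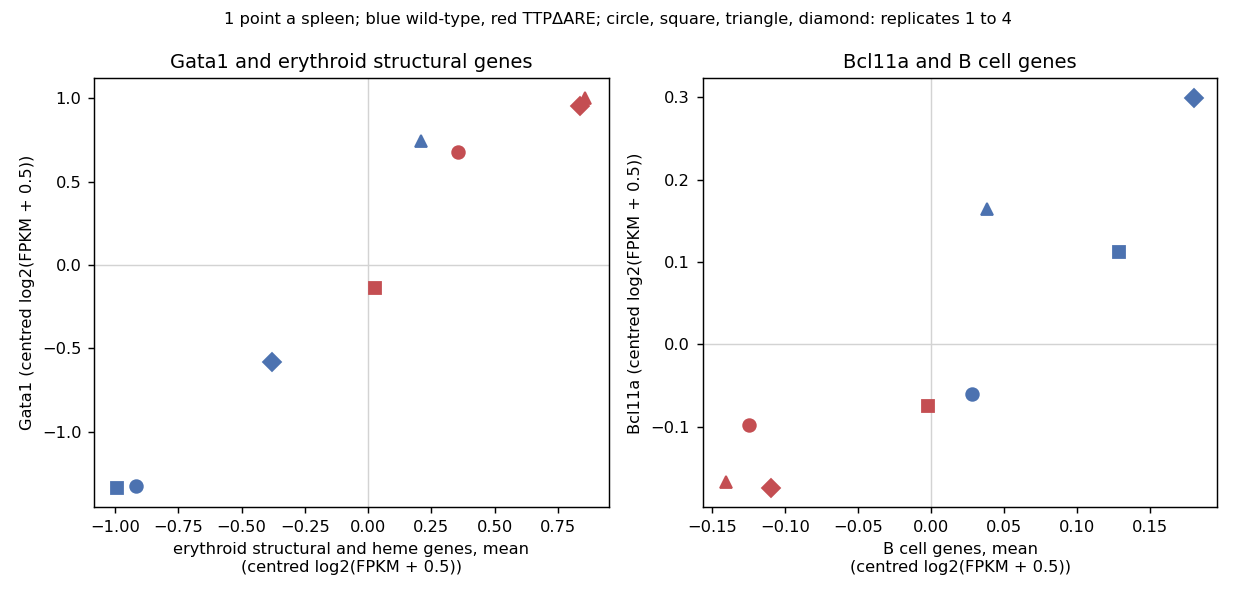
Centred log2(FPKM + 0.5) of Gata1 against the mean of erythroid structural and heme genes (left) and of Bcl11a against the mean of B cell genes (right), 1 point a spleen, blue wild-type and red TTPΔARE. In the left panel wild-type replicate 3 (blue triangle) lies between TTPΔARE replicates 2 and 1 on the horizontal axis, and in the right panel the 4 wild-type spleens lie to the right of the TTPΔARE ones.

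The ratio of Klf1 to Gata1 levels lay between 0.608 and 1.16 in the 8 spleens, that of Tal1 to Gata1 between 0.879 and 1.47, and that of Epor to Gata1 between 0.688 and 1.85. Nfe2 to Gata1 ran from 0.983 to 2.06 and Zfpm1 to Gata1 from 1.51 to 6.70, highest in wild-type replicate 1 for Zfpm1 and in replicate 2 for Nfe2, so the proportions of these genes differed between spleens. The ratio of Gata2, the GATA factor of earlier progenitors, to Gata1 was 2.55, 2.69, 0.402 and 1.12 in wild-type and 0.550, 0.918, 0.425 and 0.440 in TTPΔARE spleens. Wild-type replicate 3 had the lowest of these, and the groups overlapped (exact two-sided permutation p = 0.171). None of the 8 ratios computed, the others being of Nfe2 and Zfpm1 to Gata1, Lmo2 to Tal1 and Bcl11a to Klf1, had an exact permutation p under 0.05.

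**Figure D5:**
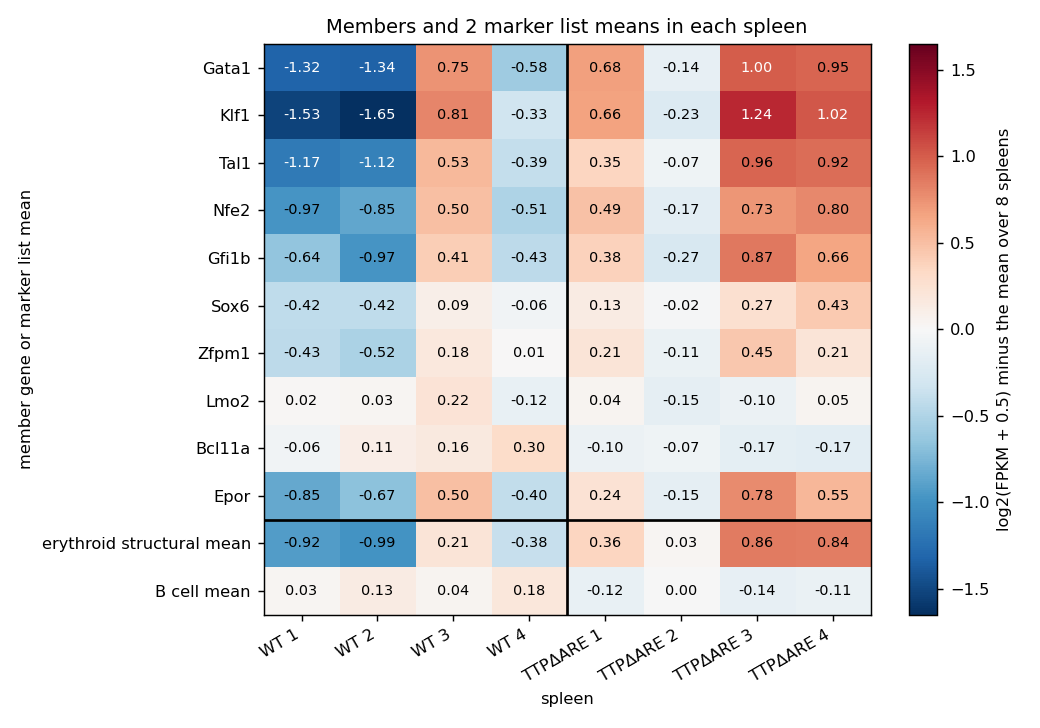
log2(FPKM + 0.5) minus the mean over the 8 spleens (colour and number in each cell) for the 10 genes and, under the line, the means of erythroid structural and heme genes and of B cell genes, by spleen. Wild-type replicates 1 and 2 are the lowest spleens and TTPΔARE replicates 3 and 4 the highest for 8 of the genes, while Lmo2 stays between -0.15 and 0.22.

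The genes whose profile over the 8 spleens was nearest to a member were found among 11171 genes with a mean of at least 1 FPKM, by the root mean square (RMS) difference of centred log2 values. Nearest to Gata1 were Ces2g, a carboxylesterase gene (RMS 0.146), Tal1 (0.182) and Klf1 (0.187), where Gata1's own SD over the spleens was 0.923. Nearest to Klf1 were Kel, which encodes a blood group protein (0.111), Ermap, an erythroid membrane protein gene (0.154), and Car2, carbonic anhydrase 2 (0.166), beside an SD of 1.05. Nearest to Epor were Steap3, an endosomal iron reductase gene (0.0844), Myh10, a nonmuscle myosin gene (0.112), and Abcb4, a phospholipid transporter gene (0.115), beside an SD of 0.567. Nearest to Bcl11a were Arhgap17 (0.0388), D8Ertd82e (0.0402) and S1pr3 (0.0448), beside an SD of 0.160.

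Of 34 genes for partners, co-regulators and related factors, 1 rose and 1 fell at a limma adjusted p under 0.05, where 4.0% of all tested transcripts were called. The median was log2 0.01, and 7 had an unadjusted p under 0.05, against 21.1% of all, so neither count stood far from the background. Myb, which keeps progenitors dividing, was at 3.06, 3.38, 3.65 and 2.96 FPKM in wild-type and 4.85, 4.15, 4.42 and 4.14 FPKM in TTPΔARE spleens. The groups did not overlap, and Myb rose by log2 0.38 (SE 0.0773, limma adjusted p = 0.0233). Fli1, an ETS factor of megakaryocytes and other blood and vessel cells, was at 29.9, 29.6, 27.7 and 29.9 FPKM in wild-type and 22.0, 25.2, 22.1 and 24.2 FPKM in TTPΔARE spleens. It fell by 0.32 on the log2 scale (SE 0.0608, limma adjusted p = 0.0174), also without overlap. Of those that did not pass, Lyl1, a close relative of Tal1, had log2 -0.29 (limma adjusted p = 0.0529), Gata2 log2 0.24 (limma adjusted p = 0.0737) and Hdac1, the most abundant, log2 -0.12 (limma adjusted p = 0.297). For Myb and Fli1, wild-type replicate 3 was the wild-type spleen nearest to the TTPΔARE group. The Myb call was lost without wild-type replicates 1 or 4 or TTPΔARE replicates 1, 3 or 4 (limma adjusted p = 0.0502 to 0.0764), that of Fli1 without wild-type replicate 4 or TTPΔARE replicate 3 (0.0545 and 0.0678). Myb was at log2 0.43 without wild-type replicate 3 (limma adjusted p = 0.0186) and Fli1 at log2 -0.35 (limma adjusted p = 0.0219). With the erythroid covariate, where 0 of all 16608 transcripts passed (1317 at an unadjusted p under 0.05), Myb was at log2 0.31 and Fli1 at log2 -0.23 (limma adjusted p = 0.563 and 0.585).

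Of 29 genes of erythropoietin and related receptor signalling, 1 rose and 0 fell at a limma adjusted p under 0.05, with a median of log2 0.03 and 6 at an unadjusted p under 0.05. These counts too lay near the 4.0% and 21.1% of all tested transcripts. Kit, the stem cell factor receptor of progenitors and mast cells, was at 2.23, 2.61, 3.14 and 2.30 FPKM in wild-type and 3.36, 3.51, 4.32 and 4.14 FPKM in TTPΔARE spleens. The groups did not overlap, and Kit rose by log2 0.50 (SE 0.106, limma adjusted p = 0.0274). The call was lost without wild-type replicates 1 or 4 or TTPΔARE replicates 3 or 4 (limma adjusted p = 0.0629 to 0.0982). Kit was at log2 0.58 without wild-type replicate 3 (limma adjusted p = 0.0146) and at log2 0.22 with the erythroid covariate (limma adjusted p = 0.746). Bcl2l1, which encodes the survival protein BCL-XL, had log2 0.47 (limma adjusted p = 0.0626), Csf2rb, the common beta chain of IL-3, IL-5 and GM-CSF receptors, log2 0.17 (limma adjusted p = 0.0824), and Jak2, the receptor's kinase, log2 0.27 (limma adjusted p = 0.0971). Ptpn6, the most abundant, encodes the phosphatase SHP-1 that damps the receptor and had log2 -0.09 (limma adjusted p = 0.377). Epo itself, made mainly in kidney, was on the list of 31 genes, of which 30 were found, but its level is not given here. Fam132b, the erythroferrone gene, was under the filter.

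Promoter letters were compared because 8 of the genes shared an order of spleens. RefSeq promoter windows (GRCm38.p6, 250 bases before the annotated start) were found for 8 of the 10 genes, 14 windows in all. No window was found for Nfe2 or Lmo2. The genes with windows are thus not the same 8: Bcl11a is among them and Nfe2 is not. Sox6 had more windows than any other gene. A GATA motif (AGATAA and its form AGATAG, or else TGATAA and its form TGATAG, on either strand) was in 5 of the 14, 1 each of Gfi1b, Tal1, Sox6, Klf1 and Epor, and in 26.5% of 32851 windows of all genes. The Gata1 window held none. The windows of 3 genes with the motif, and of Bcl11a without it, are shown 5′ to 3′ on the gene's strand up to the base before the start, with the GATA match in capitals, which lies 80 bases before the start in Klf1, 120 in Gfi1b and 54 in Epor.
Klf1 (chr8:84901732-84901981, + strand): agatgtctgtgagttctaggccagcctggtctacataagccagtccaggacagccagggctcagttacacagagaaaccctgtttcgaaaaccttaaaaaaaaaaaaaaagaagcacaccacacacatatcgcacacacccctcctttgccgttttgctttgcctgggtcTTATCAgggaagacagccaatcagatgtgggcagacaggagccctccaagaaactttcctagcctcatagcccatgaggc
Gfi1b (chr2:28621983-28622232, - strand): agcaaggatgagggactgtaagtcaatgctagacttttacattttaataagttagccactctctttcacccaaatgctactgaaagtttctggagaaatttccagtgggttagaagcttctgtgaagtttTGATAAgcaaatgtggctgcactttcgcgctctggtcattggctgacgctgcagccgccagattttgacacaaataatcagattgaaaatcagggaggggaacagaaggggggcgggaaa
Epor (chr9:21963577-21963826, - strand): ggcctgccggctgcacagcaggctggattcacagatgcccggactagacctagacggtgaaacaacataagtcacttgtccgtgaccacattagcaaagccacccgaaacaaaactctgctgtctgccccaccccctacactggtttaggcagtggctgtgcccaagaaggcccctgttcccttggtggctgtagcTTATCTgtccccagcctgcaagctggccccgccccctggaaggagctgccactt
Bcl11a (chr11:24080445-24080694, + strand): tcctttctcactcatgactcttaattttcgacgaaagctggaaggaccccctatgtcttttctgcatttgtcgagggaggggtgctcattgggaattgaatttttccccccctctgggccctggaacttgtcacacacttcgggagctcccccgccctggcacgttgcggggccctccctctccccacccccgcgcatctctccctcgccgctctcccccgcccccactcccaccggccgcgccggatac
The capitals in Klf1 and Epor are the motif on the opposite strand. The CACCC-type motif CCNCNCCC was in 8 of the 14 windows against 45.9% of all, the E-box CANNTG in 11 against 66.2%, and the NF-E2 motif TGAGTCA in 0 against 4.46%, each on either strand. No GATA match overlapped a match of another motif, and matches of CCNCNCCC overlapped each other in places. A match is a run of letters in this window, and binding was not measured.

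Target sites of TTP were looked for in the 3′ untranslated regions (UTRs), taken as the longest in GENCODE M21 for each gene. The heptamer TATTTAT was in 3 of the 10 genes, Lmo2 with 1, Bcl11a with 2 and Sox6 with 6, against 29.9% of 11250 tested genes with a 3′ UTR. The same heptamer with a further T at each end was in 0 of 10, against 7.83%. Gata1, Klf1, Tal1, Nfe2, Zfpm1, Gfi1b and Epor, the 7 tested genes that stood higher in TTPΔARE, held none, in UTRs of 63 to 3033 bases. Sox6, with the most heptamers, was not tested but also had a higher mean in TTPΔARE, 0.342 against 0.140 FPKM. Heptamers were thus found in genes with mean differences of both directions. The sites of Lmo2 and Bcl11a, which did not stand higher, are shown with 8 bases on either side and the heptamer in capitals. Those of Sox6 are not shown.
Lmo2, base 570: cagacaaaTATTTATagcgatgt
Bcl11a, base 2342: cactatagTATTTATattgaagc
Bcl11a, base 3010: ggagtcacTATTTATtattgctt
Bases are counted from the first base of the annotated 3′ UTR, which includes the stop codon. Binding of TTP to these sites was not measured.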

How the data were processed

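Total RNA of 8 mouse spleens was sequenced, and the authors deposited 1 table of FPKM per RefSeq transcript and spleen. Per the submitters' processing notes, BWA was the aligner and mm10 the build. How fragments were counted, with or without strand, how reads shared by transcripts were treated and whether rows were filtered is not given in the sources used here. Groups were taken from the genotype labels.

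The 16608 transcripts averaging at least 0.5 FPKM were tested on log2(FPKM + 0.5), which understates changes of low transcripts, with limma 3.58.1 in R 4.3.3 (variance trend, two-sided, Benjamini-Hochberg adjustment over all of them, threshold 0.05). Single genes were also tested by exact permutation over 70 assignments, whose smallest p is 0.0286. The fit was tested on simulated data. Depth was estimated from steps between values up to 0.5 FPKM: with a tolerance of 0.05, the share standing for whole fragments was 39.9 to 43.6% at the best depth and 8.46 to 8.76% at the median of the depths tried, so counts were not rebuilt and fragment numbers are approximate.

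Members and lists were chosen with earlier results of these data known. Named are all members, Zfp36, genes of each list past the threshold (at most 6, smallest p first) or otherwise the 3 with the smallest p and the most abundant 1, and the 3 nearest profiles. A gene that this rule takes is not reported here. For lists, each symbol is represented by its most abundant transcript. Besides the lists in the text, plasmacytoid dendritic cell genes (11 tested, 0 called by limma, 3 at an unadjusted p under 0.05, median log2 0.10) and T cell genes (11 tested, 0 called by limma, 6 at an unadjusted p under 0.05, median -0.12) were counted. Promoters are from RefSeq (GRCm38.p6) and UTRs from GENCODE M21. Tables were made with Python 3.11.15, pandas 2.3.3, numpy 2.4.6 and scipy 1.17.1, and plots with matplotlib 3.10.9. Alternatives were other pseudocounts, filters, scalings, variance settings, sample weights, 1 transcript per symbol, a threshold of 0.1, an erythroid covariate and leaving out each spleen.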

Additional observations from a re-analysis of the deposited data

How the results depend on the processing

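No paired analysis was possible because the labels number no replicates. Of 184 values of the 16 tested member transcripts under 12 processing alternatives, 171 kept their direction and side of the threshold, 5 passed it and 8 turned sign. Of 128 values with 1 spleen left out, 118 kept both and 10, of 9 transcripts, passed. All 8 turned signs came with the erythroid covariate: log2 -0.37 for Gata1, -0.61 for Klf1, -0.33 for Tal1, -0.24 for Nfe2, -0.29 and -0.14 for Gfi1b, -0.20 for Zfpm1 and -0.33 for Epor. Member calls were 0 of 16 by limma (10 at an unadjusted p under 0.05), 1 with quantile normalization, 2 with sample weights, 2 at a threshold of 0.1 (all of Bcl11a and lower) and 0 to 6 with a spleen left out. Over all transcripts 664 were called (333 higher, 331 lower), 1362 at a threshold of 0.1, 0 with the erythroid covariate (1317 at an unadjusted p under 0.05) and 198 to 725 with a spleen left out, lowest without TTPΔARE replicate 3. The 2 partner calls became 4 with sample weights, 5 at a threshold of 0.1, 0 with the erythroid covariate (4 at an unadjusted p under 0.05) and 0 to 3 with a spleen left out. The 1 signalling call became 2, 4, 0 (2 at an unadjusted p under 0.05) and 0 to 2 in the same settings. The cause was not tested. Low fragment numbers limit Sox6 and Gfi1b.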

Other observations

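SOX6 and BCL11A are known as repressors of embryonic globin genes, and the levels of these genes were looked up after the other values were seen. Hbb-bh1 was at 0 to 0.0764 FPKM in wild-type and 0 to 0.0765 FPKM in TTPΔARE spleens, and Hbb-y at 0 to 0.0285 and 0 to 0.0510 FPKM. Hbb-bh1 was listed at 0 in 4 of the 8 spleens and Hbb-y in 3. The highest values stand for about 1.51 and 1.02 fragments, so no difference between the groups was detectable at this depth.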
